A study of Mus musculus with 14 samples.

Results

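The phospholipase A2 genes described here are 9 members of that enzyme family, Pla2g2f, Pla2g12a, Pla2g4a, Pla2g4b, Pla2g4e, Pla2g4f, Pla2g6, Pla2g7 and Pla2g15, out of 26252 genes in the deposited count table. They were taken by name. Because the list was drawn up with the levels of these genes in the same libraries known, they count as chosen by their difference between the cell fractions, which is given here as a description: no p-value is printed for it, and the calls of the fit over all genes are only counted beside their background. RNA came from dorsal skin epithelium of wild-type (WT) C57BL/6JOlaHsd mouse embryos at E14.5, when placodes, the local thickenings that become hair follicles, lie within the interfollicular epithelium (IFE). No treatment and no altered allele separates the groups. Flow sorting on the adhesion molecule MAdCAM-1, which marks placode cells, split the epithelium into a positive, placode-enriched fraction and a negative, IFE fraction, with 7 libraries each. The libraries form 7 pairs by a code in their titles, and every library pools the epithelium of 3 to 4 littermates.

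Phospholipases A2 cut a fatty acid from the middle position of a membrane phospholipid, which frees the fatty acid and leaves a lysophospholipid. Arachidonic acid freed in this way is the starting material of prostaglandins and leukotrienes, and lysophospholipids are signals of their own. The family falls into secreted enzymes, cytosolic enzymes that calcium brings to the membrane, calcium-independent enzymes, hydrolases of platelet-activating factor (PAF) and a lysosomal enzyme. In skin the family is known for its part in lipid mediators and in the formation of the epidermal barrier.

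Library totals lay between 23768071 and 49512872 counts. Madcam1, whose protein was used for the sort, had 36.5 to 66.6 CPM (counts per megacount of library size, scaled by TMM factors) in the placode-enriched and 0.171 to 1.23 CPM in the IFE libraries. Of 12 hair placode markers, 12 were higher in the placode-enriched cells, with summed levels of 1930 to 2460 CPM against 466 to 534 CPM. The basal keratinocyte markers summed to 5430 to 7180 CPM and 6190 to 7820 CPM, so both fractions hold the labelled epithelial cells. Nothing in the labels says which libraries were made or sequenced together.

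The members with the largest differences were Pla2g2f, Pla2g4e and Pla2g4f, all lower in the placode-enriched cells, and their upstream sequences are shown because these 3 genes differed in the same direction. Each line gives the 250 bases before the RefSeq start of the gene, 5′ to 3′ on the coding strand (minus strand of GRCm38.p6). Pla2g2f lies at chr4:138757599-138757848, Pla2g4e at chr2:120245336-120245585 and Pla2g4f at chr2:120314166-120314415. The GENCODE model of Pla2g2f starts a short way inside its window. Capitals mark the letters of a searched motif and, in Pla2g4f, also a stretch present in 2 copies.
Pla2g2f: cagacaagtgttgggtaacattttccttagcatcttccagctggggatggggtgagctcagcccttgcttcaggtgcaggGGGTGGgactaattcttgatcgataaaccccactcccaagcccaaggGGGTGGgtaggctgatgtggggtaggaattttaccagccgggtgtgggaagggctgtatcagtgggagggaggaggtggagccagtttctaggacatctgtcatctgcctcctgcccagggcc
Pla2g4e: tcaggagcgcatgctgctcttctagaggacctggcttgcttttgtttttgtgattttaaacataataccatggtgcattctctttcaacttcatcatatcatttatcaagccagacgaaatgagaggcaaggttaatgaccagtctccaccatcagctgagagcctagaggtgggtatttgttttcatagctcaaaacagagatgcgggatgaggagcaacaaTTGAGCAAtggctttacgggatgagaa
Pla2g4f: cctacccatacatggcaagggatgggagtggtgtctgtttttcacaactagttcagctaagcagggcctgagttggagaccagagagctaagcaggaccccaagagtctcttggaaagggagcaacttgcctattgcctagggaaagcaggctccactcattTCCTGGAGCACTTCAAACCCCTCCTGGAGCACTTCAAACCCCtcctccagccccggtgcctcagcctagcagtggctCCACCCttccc

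Motif letters were searched on both strands in the same 250-base window of 32851 RefSeq promoters. Pla2g2f held the CACCC box letters CCACCC, as bound by Krüppel-like factors, at 2 places, 170 and 123 bases before the start, and Pla2g4f held them at 1 place, 11 bases before the start. Of all promoters, 28.1% held these letters. Pla2g4e held the C/EBP letters TTGCNNAA once, 27 bases before the start, as did 9.56% of all promoters. Among the members with smaller differences, Pla2g6 and Pla2g15 also held the CACCC box letters, 198 and 58 bases before the start, and Pla2g12a the C/EBP letters, 131 bases before the start. The windows of Pla2g2f, Pla2g4e and Pla2g4f held neither the AP-1 letters TGANTCA (6.75% of promoters) nor the grainyhead letters AACNGGTT (1.79%). They also lacked the TATA box letters TATAAA (12.4%) and the GC box letters GGGCGG (32.7%). The GC box letters were in the windows of Pla2g6, Pla2g7 and Pla2g15, and the TATA box letters in a window of Pla2g4a. The Pla2g4f window carried the same 21 bases in 2 directly adjoining copies, beginning 88 and 67 bases before the start, and 2.47% of promoters held a repeated stretch of at least 15 bases. These matches describe letters, not sites at which a factor was measured.

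The comparison of the 2 fractions asks which genes separate early hair follicle cells from the epidermis around them. Among the secreted enzymes, Pla2g2f, which acts in the upper layers of the epidermis and releases lysophospholipids from plasmalogens, lies on GRCm38 chromosome 4 (138750533 to 138757626, minus strand). It stood between 26.5 and 48.2 CPM in the IFE libraries (median 41.5) and between 1.53 and 5.80 CPM in the placode-enriched libraries (median 2.93). Every IFE library was far above every placode-enriched library. The log2 fold change of placode-enriched over IFE was -3.62 ± 0.21 (approximate SE, n = 7 pairs), and the difference within a pair ran from -4.71 to -3.02. Pla2g12a, an atypical secreted family member with weak catalytic activity (chromosome 3, 129878606 to 129895825, plus strand), stood between 17.3 and 23.2 CPM in IFE (median 18.7) and between 10.4 and 15.8 CPM in placode-enriched libraries (median 13.3). The ranges of this gene did not overlap either, although the gap was small, with a log2 fold change of -0.61 ± 0.10 and differences within pairs from -0.80 to -0.42.

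Of the cytosolic enzymes, Pla2g4f was the member with the largest difference. This gene encodes cPLA2 zeta and lies in a group of related genes on chromosome 2 (120299957 to 120314165, minus strand). In the IFE libraries it stood between 14.4 and 34.1 CPM (median 23.4), and in the placode-enriched libraries between 0.0 and 1.76 CPM (median 0.854). The placode-enriched library of pair 27-7-4 had 0 counts of this gene, which allows a level of up to 0.0886 CPM (3 counts; counting error only), and that of pair 17-5 had 1 count. Its log2 fold change was -4.85 ± 0.46, with differences within pairs from -8.61 to -3.31. The lowest of these rests on the library with 0 counts, so its size is set by the prior count of 2.

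Pla2g4e encodes cPLA2 epsilon, which transfers acyl chains to phosphatidylethanolamine and so makes precursors of N-acylethanolamines (chromosome 2, 120166412 to 120245335, minus strand). It was scarce in both fractions, between 1.33 and 4.45 CPM in IFE (median 2.38) and between 0.0 and 0.976 CPM in placode-enriched libraries (median 0.221). The ranges did not overlap. Counts per placode-enriched library ran from 0 to 50, and the log2 fold change of -2.81 ± 0.65 had the widest error among the 9 members.

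Pla2g4a, which encodes the arachidonate-releasing enzyme cPLA2 alpha (chromosome 1, 149829618 to 149961290, minus strand), was the most abundant member by CPM in the placode-enriched cells and close to Pla2g2f in IFE. It stood between 34.5 and 47.1 CPM in IFE (median 38.4) and between 30.4 and 55.8 CPM in placode-enriched libraries (median 33.8). The IFE range lay inside the placode-enriched range. Its log2 fold change was -0.05 ± 0.10, higher in 2 and lower in 5 of 7 pairs.

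Pla2g4b encodes cPLA2 beta (chromosome 2, 120033417 to 120043030, plus strand). It stood between 0.257 and 2.86 CPM in IFE (median 0.965) and between 0.161 and 1.19 CPM in placode-enriched libraries (median 0.683), and its log2 fold change was -0.89 ± 0.49. Of its 5831 exon bases, 3878 (66.5%) are shared on the same strand with the read-through gene Gm28042 and 792 with Sptbn5 on the other strand. Gm28042 is not in the count table, so no counts stand under its name. Reads from shared bases can be split or dropped in counting, so the level of Pla2g4b is uncertain. Of the other members, Pla2g4e shared 153 of 6960 exon bases with Gm13997. Pla2g7 shared 319 of 2905 with the antisense gene 1700071M16Rik, which is not in the count table either. The strand setting of the counting is not given in the sources used here.

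**Figure D1:**
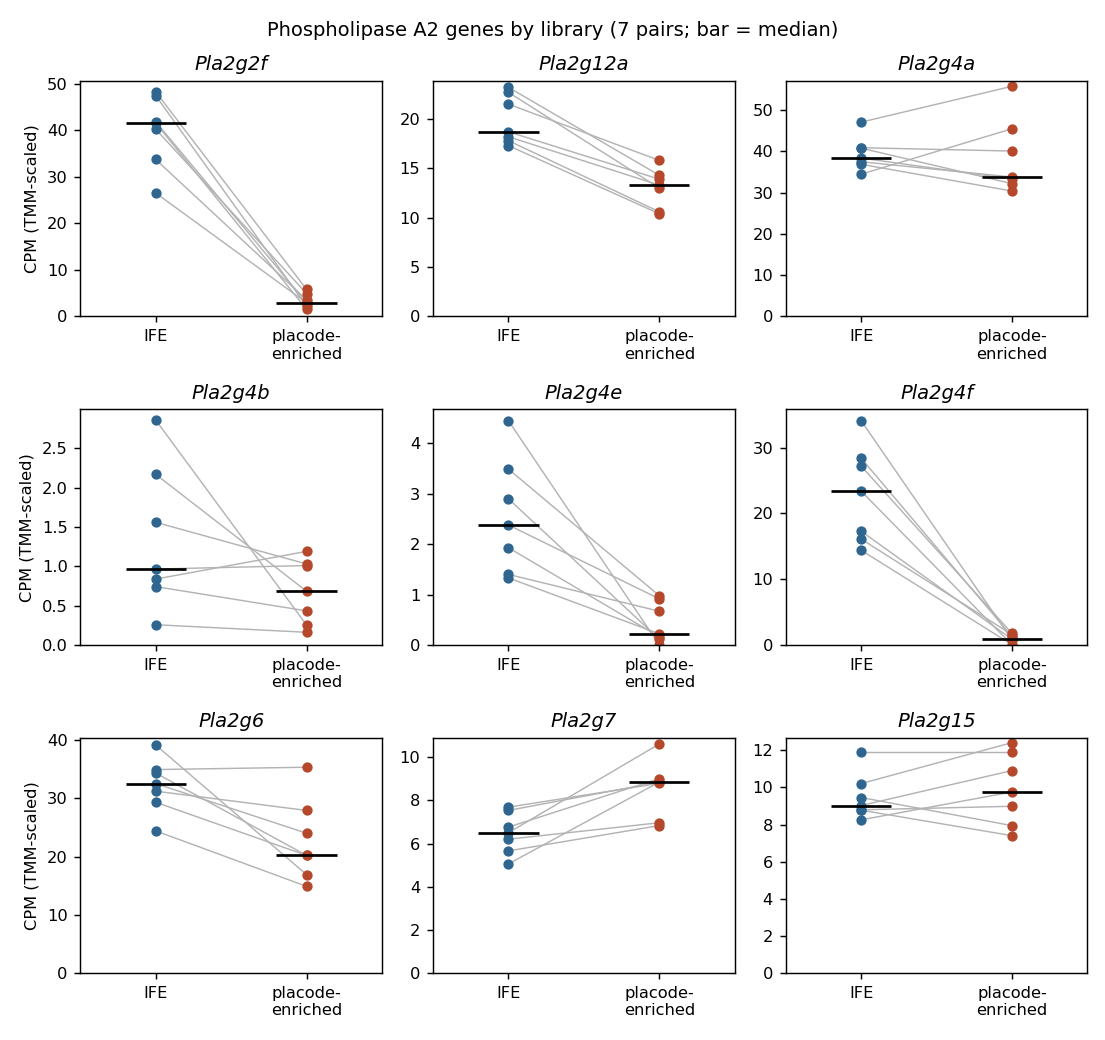
TMM-scaled CPM of each of the 9 genes in the 7 IFE (blue) and 7 placode-enriched (red) libraries, on linear axes that start at 0. Grey lines join the libraries of a pair and black bars are medians. Pla2g2f, Pla2g4f, Pla2g4e and Pla2g12a separate the fractions completely, whereas the points of Pla2g4a and Pla2g15 overlap.

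Pla2g6 encodes the calcium-independent enzyme iPLA2 beta, which takes part in membrane remodelling (chromosome 15, 79286228 to 79328390, minus strand). It stood between 24.4 and 39.1 CPM in IFE (median 32.5) and between 14.9 and 35.3 CPM in placode-enriched libraries (median 20.2). The ranges overlapped through 2 libraries: 27-7-2, in which the placode-enriched cells had 35.3 against 34.9 CPM in IFE, and 27-7-3, at 27.9 CPM. The log2 fold change was -0.54 ± 0.13, lower in 6 of 7 pairs.

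Pla2g7 encodes a secreted PAF acetylhydrolase that travels with lipoproteins (chromosome 17, 43568098 to 43612201, plus strand). It stood between 6.83 and 10.6 CPM in the placode-enriched libraries (median 8.84) and between 5.06 and 7.68 CPM in IFE (median 6.50). The ranges overlapped, but the placode-enriched library was the higher one in 7 of 7 pairs, and the log2 fold change was 0.40 ± 0.14. Pla2g7 is known from macrophages. The 11 macrophage and Langerhans cell markers in the table summed to 6.11 to 12.3 CPM in placode-enriched and 7.74 to 10.7 CPM in IFE libraries. The macrophage receptor gene Csf1r stood at means of 0.129 and 0.136 CPM and Adgre1 at 0.00279 and 0.0215 CPM, with 8 of the 11 markers too low to be tested. Of the other 3, Aif1 was higher, at 2.65 against 0.626 CPM and in 7 of 7 pairs as Pla2g7 was. Cx3cr1 was lower, at 1.24 against 3.99 CPM, and Cd68 stood at 5.49 against 4.27 CPM and did not pass. The part of such cells in the level of Pla2g7 was not tested.

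Pla2g15, the lysosomal phospholipase A2 (chromosome 8, 106150399 to 106164715, plus strand), stood between 8.25 and 11.9 CPM in IFE (median 9.02) and between 7.40 and 12.4 CPM in placode-enriched libraries (median 9.75). The ranges coincided almost entirely, and the log2 fold change was 0.05 ± 0.12.

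All 9 members passed the filter on low counts. By the adjusted p under 0.05 of the edgeR fit over 15382 genes, 5 members were lower, 1 was higher and 3 (Pla2g4a, Pla2g4b and Pla2g15) were not past the threshold, where 31.1% of all genes tested were called in either direction. The CPM ranges of the fractions did not overlap for 4 of the 9, against 14.8% of all genes. The median log2 fold change was -0.61 over the members and -0.02 over all genes tested. Because the members were chosen with this comparison known, nothing is read from these counts. The call of Pla2g7 was lost with no filter, without the pairs 11-5-2, 18-5, 1-6-3, 27-7-3 or 27-7-4 left out one at a time, and in each set of title codes alone, with log2 fold changes of 0.33 to 0.44 over all alternatives. Those of Pla2g4e and Pla2g6 were lost in the 3 pairs with 27-7 codes alone.

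Markers of differentiating epidermis moved with the lower members. The 12 suprabasal markers in the table summed to 229 to 493 CPM in the placode-enriched and 3030 to 4680 CPM in the IFE libraries, with 11 lower, 1 not past the threshold, and none at 0 in both fractions. The library with the highest suprabasal sum among the placode-enriched ones, pair 1-6-3 at 493 CPM, also had the highest Pla2g2f (5.80 CPM) and Pla2g4f (1.76 CPM) levels of that fraction, but one of the lowest Pla2g4e levels (0.115 CPM). The next highest Pla2g4f level, 1.57 CPM, was in pair 11-5-2, whose suprabasal sum of 237 CPM was the second lowest. Without pair 1-6-3 the log2 fold changes were -3.72 for Pla2g2f, -5.07 for Pla2g4f and -2.52 for Pla2g4e. Periderm markers (80.3 to 102 CPM against 234 to 307 CPM) and melanoblast markers (8.31 to 14.6 CPM against 124 to 222 CPM) were lower as well in sum, with 8 lower and 2 higher of 10 tested and 8 lower of 8 tested. The part of these cells in the differences of the members was not tested, and in bulk samples fewer cells of a type and less RNA per cell cannot be told apart.

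Levels were compared between genes as CPM per kilobase of exons. In IFE, Pla2g2f was first at 16.2 ± 3.10 (SD, n = 7 libraries), and its lowest library lay just above the highest of Pla2g4f, both at 10.7 after rounding. Pla2g4f (7.18 ± 2.29), Pla2g4a (6.17 ± 0.633), Pla2g6 (5.94 ± 0.855) and Pla2g12a (5.41 ± 0.668) followed with overlapping ranges. Pla2g15 (3.15 ± 0.403) and Pla2g7 (2.23 ± 0.326) each lay apart from their neighbours, and Pla2g4e (0.367 ± 0.164) and Pla2g4b (0.230 ± 0.156) came last and overlapped.

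In the placode-enriched cells the order was different, with Pla2g4a first at 6.06 ± 1.44 CPM per kilobase, then Pla2g6 (4.19 ± 1.29), Pla2g12a (3.55 ± 0.531), Pla2g15 (3.29 ± 0.642) and Pla2g7 (2.94 ± 0.447). Each of these overlapped its neighbour. Pla2g2f was sixth at 1.38 ± 0.609 and overlapped no gene below it. Pla2g4f (0.279 ± 0.217), Pla2g4b (0.117 ± 0.0703) and Pla2g4e (0.0628 ± 0.0584) followed. Pla2g2f and Pla2g4f made up 34.6% and 15.3% of the summed level of the 9 genes in IFE, and 6.32% and 1.27% in the placode-enriched cells. The sum averaged 46.9 ± 5.78 in IFE, with a lowest library of 38.5, and 21.9 ± 0.813 CPM per kilobase in the placode-enriched libraries, with a highest of 23.3. With the longest transcript as length, Pla2g4a stood at 11.2 in placode-enriched and 11.4 in IFE and Pla2g6 at 6.76 and 9.58 CPM per kilobase, both then above Pla2g4f in IFE. With that length Pla2g2f in IFE, at 10.7 to 19.6, overlapped Pla2g4a, at 9.98 to 13.6, and Pla2g15 overlapped Pla2g7.

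**Figure D2:**
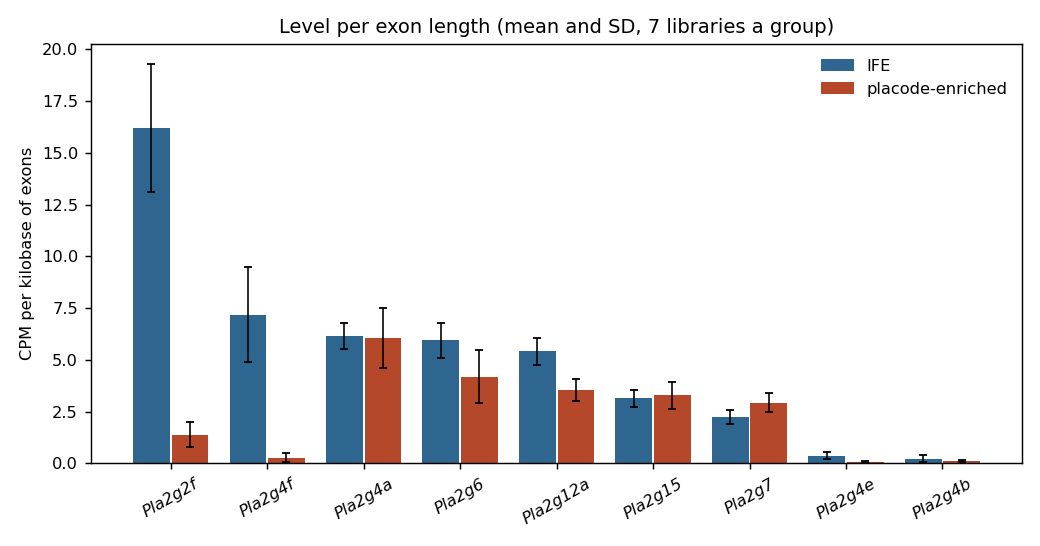
Mean CPM per kilobase of exons with SD (error bars) over 7 libraries a group, IFE in blue and placode-enriched in red, on a linear axis from 0. Pla2g2f is the tallest bar in IFE at 16.2 and takes sixth place in the placode-enriched cells at 1.38, while Pla2g4a is at 6.17 and 6.06.

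A contrast other than that of the fractions is that of the libraries whose title codes start with 27-7 (3 pairs) with the 4 other pairs, within each fraction. It uses the same libraries, and the rule for the members does not say which of their values were in view. The labels do not say what the code stands for. In the placode-enriched libraries, Pla2g15 stood at 10.9 to 12.4 CPM with the 27-7 codes against 7.40 to 9.75 CPM (log2 difference 0.47 ± 0.18, edgeR adjusted p = 0.371). Pla2g12a went the other way, at 10.4, 10.6 and 13 against 13.3 to 15.8 CPM (-0.33 ± 0.17, edgeR adjusted p = 0.442). For these 2 members the ranges did not overlap, as for 9.08% of 15819 genes in that comparison. Pla2g6 (0.55 ± 0.21) and Pla2g4a (-0.44 ± 0.17) overlapped and also missed the threshold (edgeR adjusted p = 0.371 for both).

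In the IFE libraries Pla2g4b stood at 1.56 to 2.86 CPM with the 27-7 codes against 0.257 to 0.965 CPM, the one member whose ranges did not overlap there, where 6.52% of 15813 genes did not. Its log2 difference of 1.64 ± 0.46 missed the threshold (edgeR adjusted p = 0.943). Sptbn5, which shares exon bases with it on the other strand, stood at 0.917 to 2.22 CPM against 0.642 to 2.21 CPM in the same libraries, and Jmjd7, whose gene joins Pla2g4b in the read-through Gm28042, at 0.659 to 1.83 against 0.828 to 1.11 CPM. The ranges of the code sets overlapped for both neighbours. Gm28042 itself is not in the count table and could not be compared, and the part of shared reads was not tested.

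No member passed in either fraction, nor did any gene of the table by edgeR (0.0% called). At an unadjusted p under 0.05, edgeR gave 1900 of 15819 genes, 3 members among them, in the placode-enriched libraries and 813 of 15813 genes, 1 member among them, in IFE. DESeq2 called 108 and 4 genes and limma-voom 0 and 0. DESeq2 called no member in IFE. It gave no adjusted p for any of the 9 members in the placode-enriched libraries, so it made no call on them there. The unadjusted DESeq2 p in those libraries was under 0.05 for 3 members, among 2129 of 15819 genes. The fraction difference of a member did not pass a test of its dependence on the code set either: the largest estimate was that of Pla2g4b, at -1.69 ± 0.90 (edgeR adjusted p = 0.902), with 0.0% of 15382 genes called, 528 at an unadjusted p under 0.05, 1 by DESeq2 and 0 by limma-voom.

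**Figure D3:**
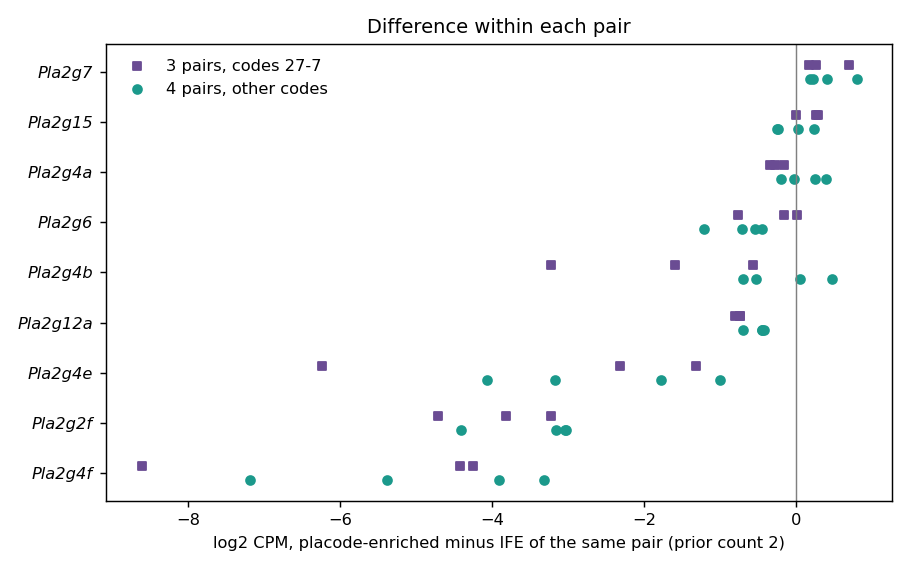
Difference in log2 CPM between the placode-enriched and the IFE library of each pair (prior count 2), for the 3 pairs with 27-7 codes (purple squares) and the 4 other pairs (green circles). Pla2g4f, Pla2g2f, Pla2g4e and Pla2g12a are below 0 in all 7 pairs and Pla2g7 is above 0 in all 7.

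After the mean of each fraction was taken off, Pla2g4a and Pla2g6 ran in opposite directions over the 14 libraries (Pearson r = -0.86), as did Pla2g4a and Pla2g15 (r = -0.76), while Pla2g6 and Pla2g15 ran together (r = 0.76). Pla2g6 and Pla2g7 also ran in opposite directions (r = -0.72), and Pla2g2f and Pla2g12a had r = 0.50. Pla2g2f and Pla2g4f, which had r = 0.85 over all libraries, had r = -0.08 within the fractions. These values describe 14 libraries that are paired by title code, and they are not tests.

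Among 9096 genes with a mean of at least 10 CPM, the patterns most like that of Pla2g2f over the 14 libraries were those of Rab25 (r = 0.993), Tgm3 (r = 0.988) and Rdh12 (r = 0.987), which kept r = 0.875, 0.81 and 0.764 within the fractions. Tgm3, an epidermal transglutaminase gene, is also on the list of suprabasal markers, as is Dsc1, a desmosomal cadherin gene. Pla2g4f was most like Bnipl (r = 0.96), Il17rc (r = 0.957) and Shisa7 (r = 0.953), and Pla2g12a most like Chl1 (r = 0.941), Prrg4 (r = 0.935) and Dsc1 (r = 0.931). Pla2g6 was most like Plec, Fasn and Plxna1 (r = 0.979, 0.977 and 0.976, and 0.967, 0.96 and 0.957 within the fractions). Pla2g4a was most like Gpcpd1 (r = 0.898), Mre11a (r = 0.895) and Pex2 (r = 0.894), and R3hdm1 (r = 0.929) and Pgam1 (r = 0.927) were among the genes most like Pla2g15. Pla2g7 was most like Tnfaip8 (r = 0.933), Cenpa (r = 0.895) and Cntln (r = 0.887). Pla2g4e was most like Ywhab, G6pdx and Nab1 (r = 0.903, 0.902 and 0.901), and Pla2g4b most like Igf2r, Itpr2 and Fbxo42 (r = 0.861, 0.855 and 0.834). Within the fractions, r was 0.736, 0.702 and 0.695 for Pla2g4e, which had 0 to 50 counts per placode-enriched library. It was 0.792, 0.771 and 0.75 for Pla2g4f, 0.787, 0.801 and 0.764 for Pla2g12a, and 0.865, 0.823 and 0.801 for Pla2g7. All these genes were picked for the highest r, and no r was tested.

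Other genes of the family were mostly scarce. Of 18 further genes listed as phospholipase A2, PAF hydrolase or receptor genes, 13 were in the table and 8 were tested. Of these, 3 were lower, 1 was higher and 4 did not pass. The lists here and below were chosen with earlier results of these data known. The adjusted p-values printed for their genes therefore describe chosen genes and are not independent tests. Plaat3, a phospholipase best known from fat tissue, listed in the table under its older name Pla2g16, fell from 5.94 ± 0.884 to 0.737 ± 0.394 CPM (mean ± SD, n = 7 each; log2 -3.11 ± 0.28; edgeR adjusted p = 1.94e-06). Pafah2, an intracellular PAF hydrolase, fell from 26.0 ± 2.14 to 13.3 ± 1.07 CPM (log2 -0.97 ± 0.09; edgeR adjusted p = 2.82e-06). Pla2g2d, a secreted enzyme and neighbour of Pla2g2f, was lower too, at 0.198 against 0.914 CPM (log2 -2.43 ± 0.73; edgeR adjusted p = 0.0201; named after its value was seen). Its call was lost without pair 27-7-3 (-2.41, adjusted p = 0.0535) or pair 27-7-4 (-2.03, adjusted p = 0.0612) and in the 4 other pairs alone (-1.38, adjusted p = 0.277), by edgeR throughout. The secreted family genes Pla2g2c, Pla2g2e, Pla2g5 and Pla2g10 had 20, 3, 12 and 15 counts over all libraries and were not tested. Pafah1b3, another PAF hydrolase gene, was higher (log2 0.35 ± 0.11; edgeR adjusted p = 0.0342), in 5 of 7 pairs. It missed the threshold without pair 11-5-2 (0.24), 17-5 (0.32), 27-7-3 (0.35) or 27-7-4 (0.37), with edgeR adjusted p from 0.0628 to 0.0995, and in each set of codes alone.

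Over 10 lists of related lipid genes, 92 genes were tested, of which 16 were higher, 35 lower and 41 not past the threshold. These lists, chosen with earlier results known, were compared with the background of 31.1% by count only and not by a set test. Among 6 patatin-like lipases, 2 were higher and 2 lower (median log2 fold change -0.02). Pnpla1, which makes barrier ceramides, fell from 17.5 ± 3.67 to 0.646 ± 0.378 CPM, Pnpla7 changed by -0.73 ± 0.17 and the triglyceride lipase gene Pnpla2 rose by 0.68 ± 0.12 on the log2 scale.

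Genes that act on arachidonic acid after its release went both ways. Of 14 tested genes of prostanoid synthesis and breakdown, 4 were higher and 6 lower (median -0.20). Ptges, the inducible prostaglandin E synthase, rose from 23.8 ± 2.69 to 71.1 ± 8.03 CPM (log2 1.58 ± 0.09; edgeR adjusted p = 2.42e-08), and Abcc4, which exports prostaglandins, rose by 1.11 ± 0.09. Ptgr1, which inactivates prostaglandins and leukotrienes, fell from 41.1 ± 3.96 to 12.4 ± 2.95 CPM (log2 -1.75 ± 0.10). Ptgds, the lipocalin-type prostaglandin D synthase, fell from 7.41 ± 2.85 to 0.119 ± 0.154 CPM. The cyclooxygenase genes were scarce and differed in opposite directions, Ptgs2 at 1.54 against 0.0878 CPM (4.17 ± 0.72; edgeR adjusted p = 0.000499) and Ptgs1 at 0.0729 against 1.16 CPM (-4.28 ± 0.70; edgeR adjusted p = 0.000332), both named after their values were seen.

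Of 5 tested prostanoid receptor genes, 1 was higher and 2 lower (median -0.79). The prostacyclin receptor gene Ptgir rose from 0.557 ± 0.294 to 8.78 ± 2.19 CPM (log2 4.04 ± 0.34; edgeR adjusted p = 9.98e-07), whereas the prostaglandin E receptor genes Ptger3 (-3.13 ± 0.23) and Ptger4 (-0.79 ± 0.20) fell, the latter not past the threshold in the 4 pairs without 27-7 codes alone (-0.52). Of 6 tested genes of the lipoxygenase list, 3 were lower and 1 higher (median -2.06). Alox12 fell from 37.1 ± 4.87 to 7.09 ± 1.76 CPM (log2 -2.41 ± 0.12), while Alox12e rose from 0.311 ± 0.264 to 5.31 ± 1.25 CPM (4.38 ± 0.49).

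Genes that use or reform lysophospholipids were tested next. Of 13 acyltransferases, 4 were lower, 1 higher and 8 not past the threshold (median -0.12), and Agpat3 (-1.29 ± 0.09), Lpcat2 (-1.43 ± 0.13), Mboat2 (-1.40 ± 0.08) and Mboat1 (-1.04 ± 0.14) were the lower ones. Of 14 lysophospholipid enzyme and receptor genes, 4 were higher and 4 lower (median 0.02), with the lipid phosphate phosphatase genes Plpp1 (1.24 ± 0.25) and Plpp3 (0.90 ± 0.11) higher and Plpp2 (-0.87 ± 0.11) lower. Of 11 N-acylethanolamine and endocannabinoid enzymes, 4 were lower and 1 higher (median -0.12). Faah, which breaks down the lipids that the Pla2g4e pathway leads to, fell from 7.03 ± 1.95 to 0.215 ± 0.261 CPM (log2 -5.26 ± 0.48), and Mgll (-1.43 ± 0.13), Abhd6 (-0.78 ± 0.11) and Daglb (-0.71 ± 0.13) fell as well.

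Of 5 tested genes of plasmalogen synthesis, 1 was lower, Selenoi (-0.52 ± 0.09), and none higher (median -0.06). Of 10 lysosomal lipid hydrolase genes, 6 were lower and 1 higher (median -0.37), where Pla2g15 itself stood at 0.05 ± 0.12. Gm2a fell from 54.2 ± 7.63 to 23.7 ± 4.11 CPM, Psap from 331 ± 35.4 to 211 ± 17.6 CPM and Lipa by 0.60 ± 0.11 on the log2 scale.

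**Figure D4:**
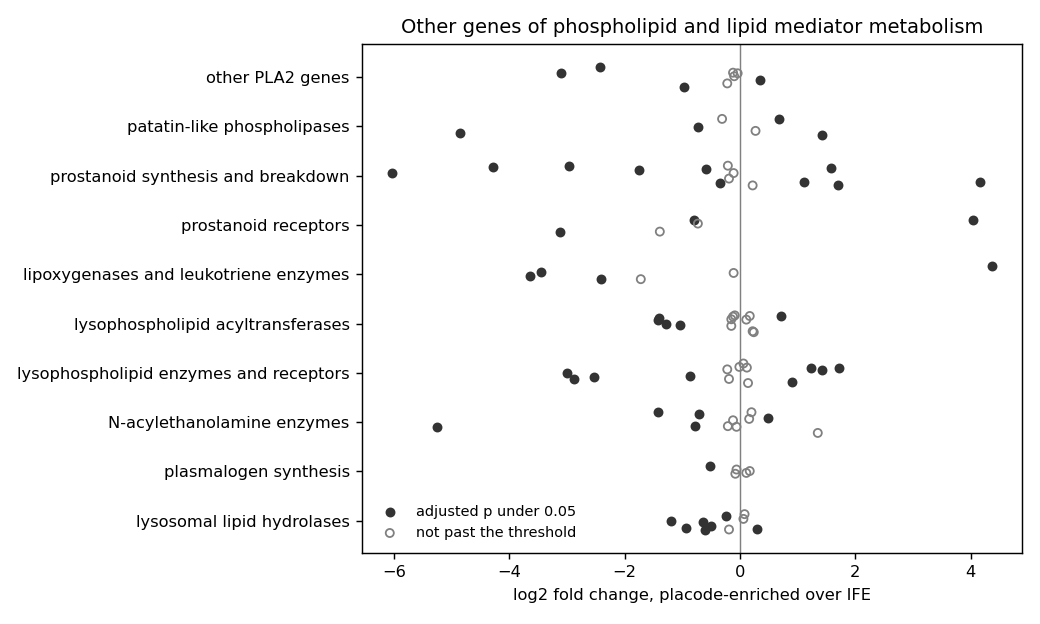
Log2 fold change of placode-enriched over IFE for each tested gene of the 10 lists, with filled points for an adjusted p under 0.05 (edgeR) and open points for the rest. Vertical scatter within a row has no meaning. Of the 10 lysosomal hydrolase genes, 6 are filled points below 0 and 1 is a filled point above it, whereas prostanoid genes spread from -6.03 (Ptgds) to 4.17 (Ptgs2).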

How the data were processed

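The 14 libraries are total RNA prepared with the Ovation SoLo kit, per the labels' protocols. The authors deposited raw read counts per Ensembl gene. The submitters' processing notes name STAR (version listed: 1.5) and HTSeq, with bcl2fastq 2.17.1.14 and Trimmomatic before them, FastQC and MultiQC for quality, and the builds GRCm38 and mm10. For the annotation release, the strand setting and duplicate handling, the sources used here give nothing. Reads amplified by PCR are not single molecules, so floors cover counting error only. Depth lay between 23768071 and 49512872 counts.

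Symbols, coordinates and exon lengths came from GENCODE M21 (GRCm38; 25949 of 26252 identifiers matched, the others held 0.44% of counts). Promoter sequences came from RefSeq (GRCm38.p6; 8 of 9 members matched). edgeR 4.0.16 (R 4.3.3) with filterByExpr (15382 genes kept), TMM and robust quasi-likelihood tests was used for the fractions, blocked by pair, and p-values were adjusted by Benjamini-Hochberg at 0.05 over all genes. The design text names pairs and titles share codes. Within pairs, the deviations of the libraries from their fraction's mean had an average correlation of 0.055 (-0.132 to 0.195; over 0.1 in 2 pairs). For the fractions, and for their dependence on the code set, the spread behind each p-value is that of the within-pair difference over pairs. For the code sets within a fraction it is that between pools of embryos. The approximate SE is the unshrunk log2 coefficient over the root of its F statistic. Differences within pairs used a prior count of 2.

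The members and lists were chosen with earlier results of these data known. Named were the members, up to 4 called genes of each list by size of change (reaching 5 CPM on average in one fraction), and the 3 genes with the highest Pearson r to each member. A result this rule names in each of 2 places is not reported here. Marker lists were described by sums and counts. Mast cell markers summed to at most 2.01 CPM and endothelial markers to at most 3.84 CPM. Dermal fibroblast markers summed to 372 to 604 CPM in placode-enriched and 254 to 341 CPM in IFE libraries. Most of that sum was Dcn, at means of 498 and 258 CPM, whereas Pdgfra stood at 0.446 and 0.413 CPM. Of 7 fibroblast markers tested, 3 were higher, 3 not past the threshold and 1 lower (Col1a1, 0.524 against 4.2 CPM in IFE). Tried as alternatives were a fit without the pair block, DESeq2 size factors, library size only, no filter, 1 CPM in 7 libraries, DESeq2 1.42.0, limma-voom 3.58.1, each pair left out, each code set alone and the longest transcript as length. The fits were also run on simulated counts, with the same dispersion for all genes, no pair effect and no change in the scarcest genes. That run therefore does not cover the scarcest genes or the spread between pairs. Tables and figures used Python 3.11.15, pandas 2.3.3, numpy 2.4.6 and matplotlib 3.10.9.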

Additional observations from a re-analysis of the deposited data

Results flagged for a closer look

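The CPM of the 9 members and the summed CPM of 9 marker lists were examined in each fraction for a library far from the other 6, which chance gives in about 1 of 20 groups. No member was flagged, and 4 of 36 groups were, all of them marker sums. The suprabasal markers were highest in the placode-enriched library of pair 1-6-3, at 493 CPM. The mast cell markers were highest in the IFE library of that pair, at 2.01 CPM. The dermal fibroblast markers were lowest in the placode-enriched library of pair 27-7-2, at 372 CPM, and highest in the IFE library of pair 17-5, at 341 CPM.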

How the results depend on the processing

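The direction of every member past the threshold was the same under all alternatives run. Between the fractions, 2331 genes were called in the 3 pairs with 27-7 codes alone and 3087 in the 4 other pairs, against 4786 with all, and 3953 to 5229 when pairs were left out one at a time. Members called were 3 with 27-7 codes alone and 5 or 6 under each other alternative. Without the pair block, 4689 genes and the same 6 members were called, and no named call changed. In the comparison of code sets, where edgeR called 0 genes, DESeq2 called 108 in the placode-enriched and 4 in the IFE libraries and 1 for the dependence on the code set. Leaving out a pair gave 0 to 1 genes in placode-enriched and 0 to 4 in IFE libraries, and the cause was not tested. Of the other genes named, Pafah1b3 lost its call under 6 alternatives, Pla2g2d under 3, and Daglb, Lipa, Plpp1, Pnpla7 and Ptger4 under 1 each, all in one set of codes alone. With the longest transcript as length, 7 of 9 members kept their place in the order in placode-enriched and 6 of 9 in IFE libraries. Depth limits 3 members in the placode-enriched cells, where Pla2g4e had 0 to 50, Pla2g4b 4 to 61 and Pla2g4f 0 to 61 counts per library.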
